A study of Homo sapiens with 24 samples.

Results

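The genes described here are those that were well measured in both breast cancer lines of the study, and the quantity that orders them is the difference between the lines in their response to abemaciclib, an inhibitor of the cyclin-dependent kinases CDK4 and CDK6. A gene was taken when its mean level reached 10 counts for every 1e+06 in the library (CPM) in the DMSO or the abemaciclib group of each line, which gave 6965 genes out of 12750 that could be tested and 59609 symbols in the deposited table. For each of them the log2 change with abemaciclib was estimated in each line, and the difference was the change in MDA-MB-453 minus the change in MDA-MB-231, so that a negative difference means a lower response in MDA-MB-453. Genes were then sorted into those that moved the same way in both lines, in 1 line only, or in opposite ways. A further 1486 genes reached the level in MDA-MB-231 alone and 1225 in MDA-MB-453 alone, and these are not described.

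The study asked how CDK inhibition, through Rb, changes transcription in breast cancer cells. Its 12 libraries used for this contrast hold 3 replicates each of wild-type cells of both lines, kept for 5 days in DMSO or in 500 nM abemaciclib. Another 12 libraries of the same lines, with 5 nM fulvestrant, an antagonist and degrader of the oestrogen receptor, in place of DMSO and beside abemaciclib, were used as a second, separate measurement. Each line is a single established breast cancer cell line: MDA-MB-231 is of the basal, mesenchymal kind and MDA-MB-453 of the luminal kind. The study uses both as oestrogen receptor-negative lines with wild-type RB1. MDA-MB-231 cells were grown in RPMI-1640 with FBS, GlutaMax and HEPES and MDA-MB-453 cells in DMEM with FBS, so that the line and its medium cannot be told apart in any difference below. The study describes the 3 libraries of a group as independent biological replicates within 1 experiment, and the p-values measure the spread between them, not that between repeats of the experiment. In bulk RNA, fewer cells in a given state and less RNA per cell cannot be told apart.

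As background, cyclin D with CDK4 or CDK6 phosphorylates Rb, which releases E2F transcription factors and lets the genes of DNA replication be transcribed. Mitotic genes come later in the cycle and are repressed in resting cells by the DREAM complex, which contains an Rb relative and binds the cell cycle homology region of their promoters. Inhibitors of CDK4 and CDK6 keep Rb in its active form and hold sensitive cells in G1, and in breast tumours they have also been linked to interferon signalling, antigen presentation and larger, lysosome-rich cells.

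The libraries held 3280637 to 3952218 counts each, and their identity was checked on marker genes. VIM, CD44, AXL, CAV1 and SPARC were at 0 counts in each of the 12 MDA-MB-453 libraries, and the summed level of the 6 mesenchymal markers (with ZEB1) was 2489 to 3338 CPM in MDA-MB-231 against 0 to 0.696 CPM in MDA-MB-453. TFAP2B was at 0 counts in each of the 12 MDA-MB-231 libraries, and the summed level of 5 luminal markers (with FOXA1, SPDEF, ERBB3 and GATA3) was 8.84 to 18.0 CPM there against 1751 to 2197 CPM in MDA-MB-453. The share of counts in genes of the mitochondrial genome was 8.83% ± 0.213 under DMSO and 12.2% ± 1.05 with abemaciclib in MDA-MB-231 (SD, n = 3). In MDA-MB-453 it was 15.2% ± 0.653 and 23.8% ± 1.91. At this depth 3 counts over a group of 3 libraries, the limit that a count of 0 allows, came to 0.255 to 0.300 CPM. That limit and the counting intervals below cover counting error only.

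Across the 6965 genes the responses of the lines were related but far from equal. The log2 changes in MDA-MB-231 and MDA-MB-453 had a Pearson correlation of 0.368 and a Spearman correlation of 0.367 across genes, which share libraries and are not independent replicates. The median change was -0.07 in MDA-MB-231 against -0.03 in MDA-MB-453. By edgeR's quasi-likelihood test with Benjamini-Hochberg adjustment over all genes tested, at an adjusted p under 0.05, the difference between lines was called for 2095 of the 6965 genes (30.1%), against 20.7% of all genes tested. In MDA-MB-453 the response was the higher one for 867 genes (12.4%, against 7.72% of all tested) and the lower one for 1228 (17.6%, against 13% of all tested). This split rests on the scaling of the libraries: with library totals in place of TMM factors it was 665 higher and 1471 lower, or 31.1% higher instead of 41.4%, and without the genes of the mitochondrial genome it was 694 and 1420.

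Sorting by direction gave 1156 genes (16.6%) that were called in both lines with the same sign. Of these, 321 rose and 486 fell with no called difference between lines, while 239 fell further in MDA-MB-453, 26 fell further in MDA-MB-231, 69 rose further in MDA-MB-231 and 15 rose further in MDA-MB-453. Another 669 genes (9.61%) changed in MDA-MB-231 only, meaning that they were called there, not called in MDA-MB-453, and differed between lines by the test of the difference itself; 349 of them rose and 320 fell. In MDA-MB-453 only, 734 genes (10.5%) changed, with 339 rises and 395 falls. A missing call in the other line does not show that the gene was unchanged there. The confidence interval of the change in that other line lay within 1.5-fold for 480 of the 669 genes and 498 of the 734. For the rest of both sets a change of 1.5-fold or more in the other line was not excluded. Opposite and called changes were seen in 270 genes (3.88%), of which 148 rose in MDA-MB-231 and fell in MDA-MB-453 and 122 did the reverse. Beside these, 1442 genes were called in 1 line without a called difference, 73 differed between lines with neither change called on its own, and 2621 (37.6%) were called in none of these ways. Of all genes tested, 15.1% were called as rising and 14.6% as falling in MDA-MB-231, and 13.2% and 16.7% in MDA-MB-453.

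The lines also differed in how far genes moved. In MDA-MB-231, 306 genes rose and 232 fell by a log2 change of 1 or more, and in MDA-MB-453, 177 rose and 510 fell. At a log2 change of 4 or more there were 3 rises, all in MDA-MB-231, and 79 falls, all in MDA-MB-453. Of these 79 deep falls, 59 were in the lists of the CDK4/6 and RB pathway, DNA replication, mitosis and DNA repair, and 66 were also called lower in MDA-MB-231, where their changes ran from -2.31 to 0.09 with a median of -0.95. The 239 genes whose fall was larger in MDA-MB-453 had a median change of -0.80 in MDA-MB-231 against -2.45 in MDA-MB-453. The genes that changed in 1 line only had medians of 0.79 and -0.68 for rises and falls in MDA-MB-231, and of 0.71 and -0.75 in MDA-MB-453, with 8 genes of the mitosis list and 9 of the replication list among the falls in MDA-MB-453.

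**Figure D1:**
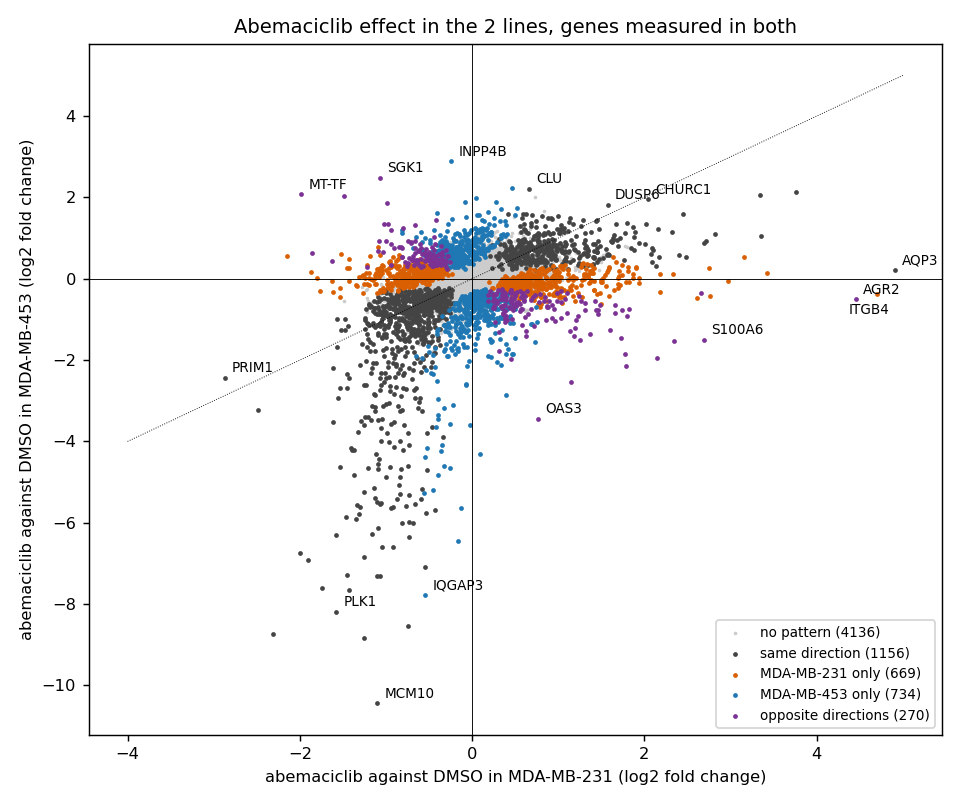
Fitted log2 change with abemaciclib in MDA-MB-231 (x axis) against that in MDA-MB-453 (y axis) for the 6965 genes, 1 point per gene, coloured by direction pattern. The deepest points lie far below the diagonal, where MDA-MB-453 falls exceed a log2 change of 4 while the same genes fell by at most 2.31 in MDA-MB-231.

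Mitotic genes fell in both lines, and much further in MDA-MB-453. Of the 79 mitosis genes among those well measured, out of 88 on the list, 70 fell in MDA-MB-231 against 76 in MDA-MB-453, the others were not called, and the difference was called lower in MDA-MB-453 for 70. Their median change was -0.86 in MDA-MB-231 against -4.55 in MDA-MB-453, with a median difference of -3.46 against -0.00 over all 6965 genes; with the genes at 0 counts set to their bound it was -3.45. PLK1, a kinase that drives entry into and passage through mitosis, stood at 239, 213 and 242 CPM under DMSO and 73.2, 70.5 and 88.5 CPM with abemaciclib in MDA-MB-231. In MDA-MB-453 it went from 152, 164 and 139 CPM to 0.759, 0 and 0.601 CPM, so that it stayed readily detected in every MDA-MB-231 library and was close to absent in every treated MDA-MB-453 library. The fitted change was -1.58 ± 0.13 (SE, as after every ± on the log2 scale) in MDA-MB-231 against -8.19 ± 0.27 in MDA-MB-453, a difference of -6.61 ± 0.35 (edgeR, adjusted p = 9.56e-21). With so few counts in the treated MDA-MB-453 libraries, the SE of that change and of the difference are smaller than counting error alone. They do not measure how exactly the size of the fall is known, and the same holds for PTTG1 and RRM2 below. All of these genes met the level rule in MDA-MB-453 through their DMSO group only.

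PTTG1, which encodes securin, the inhibitor of sister chromatid separation, went from 516, 522 and 515 CPM to 237, 239 and 264 CPM in MDA-MB-231 and from 100.5, 119.6 and 117 CPM to 1.52, 0.274 and 0 CPM in MDA-MB-453. It fell by 1.07 ± 0.10 in the first line, where no treated library came near 0, and its difference was -6.23 ± 0.30 (edgeR, adjusted p = 2.73e-22). SPC25, a subunit of the kinetochore's NDC80 complex, had 156 counts over the DMSO libraries and 0 over the treated libraries of MDA-MB-453, and was at least 53.2-fold lower against the limit of 3 counts. In MDA-MB-231 it fell by 2.31 on the log2 scale.

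CDCA3, a regulator of mitotic entry, was also at 0 counts in the treated MDA-MB-453 libraries, from 166 under DMSO, at least 56.6-fold lower, while in MDA-MB-231 it went from 111, 119 and 121 CPM to 52.2, 54.1 and 41.4 CPM. The exons of CDCA3 overlap those of GNB3 on the other strand, and the strand setting of the counting is not given in the sources used here, so reads of the pair cannot be told apart. BUB1B, a kinase of the spindle checkpoint, was called in MDA-MB-453 only: it went from 48.8, 41.3 and 40.7 CPM to 2.02, 0.821 and 0.301 CPM there, and in MDA-MB-231 its libraries ran 20.1, 36.5 and 30.6 CPM under DMSO and 28.4, 19.8 and 15.9 CPM with abemaciclib, with a change of -0.45 ± 0.25 (edgeR, adjusted p = 0.188). CIT, the citron kinase of cytokinesis, went from 123 counts to 1 in MDA-MB-453, a ratio of 126 with a 95% exact counting interval of 22.2 to 5010, and CENPI, a centromere protein, from 120 counts to 2, a ratio of 61.4 with an interval of 16.6 to 513. IQGAP3, a scaffold protein of the IQGAP family, went from 305 counts to 1, a ratio of 312 with an interval of 55.6 to 12400. In MDA-MB-231 these 3 genes changed by -0.16 ± 0.29, -0.13 ± 0.26 and -0.54 ± 0.28, and their treated and DMSO libraries overlapped.

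Promoters of these genes are shown because the mitosis and replication lists differ in the letters they hold. RefSeq promoters (GRCh38.p14, from 250 bases before to 50 bases after the start) were matched to 5658 of the 6965 genes and searched on both strands, and the letters of the cell cycle homology region, TTTGAA or TTCGAA, are in capitals here, printed 5′ to 3′ on the gene's strand.
PLK1, chr16:23678639-23678938, plus strand, match starting 29 bases before the start: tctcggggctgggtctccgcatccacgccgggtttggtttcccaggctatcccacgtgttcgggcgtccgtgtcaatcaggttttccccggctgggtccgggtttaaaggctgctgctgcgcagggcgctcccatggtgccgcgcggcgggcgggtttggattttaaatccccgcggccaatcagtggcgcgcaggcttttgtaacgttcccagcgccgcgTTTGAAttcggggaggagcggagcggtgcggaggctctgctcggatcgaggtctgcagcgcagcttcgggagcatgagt
CDCA3, chr12:6851237-6851536, minus strand, match starting 3 bases before the start: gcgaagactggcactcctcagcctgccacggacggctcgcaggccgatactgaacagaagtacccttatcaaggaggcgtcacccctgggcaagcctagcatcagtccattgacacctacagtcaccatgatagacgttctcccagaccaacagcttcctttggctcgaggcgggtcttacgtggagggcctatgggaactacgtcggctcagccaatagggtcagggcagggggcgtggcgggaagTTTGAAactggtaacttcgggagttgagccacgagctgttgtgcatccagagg
BUB1B, chr15:40160819-40161118, plus strand, match starting 23 bases before the start: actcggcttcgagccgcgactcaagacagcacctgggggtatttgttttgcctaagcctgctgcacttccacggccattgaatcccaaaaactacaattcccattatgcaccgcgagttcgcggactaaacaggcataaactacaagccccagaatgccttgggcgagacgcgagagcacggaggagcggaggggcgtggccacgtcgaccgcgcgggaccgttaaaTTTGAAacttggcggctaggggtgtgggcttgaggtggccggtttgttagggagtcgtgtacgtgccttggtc

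In the promoter windows of the mitosis list, 69.2% of 65 held the cell cycle homology letters and 7.69% an E2F site (TTTCCCGC, TTTGGCGC, TTTCGCGC or TTTGCCGC). The shares over all 27305 promoters were 16.6% and 3.33%, and over all 5658 matched genes 11.0% and 6.61%. For the replication list the order was turned round, with E2F letters in 44% of 50 promoters and cell cycle homology letters in 8%. CCAAT letters were in 67.7% of the mitosis promoters and 58.0% of the replication promoters, against 35.7% of all promoters. Sorted by response instead of list, genes with the larger fall in MDA-MB-453 held cell cycle homology letters in 34.4%, E2F letters in 20.3% and CCAAT letters in 58.9% of promoters, and genes that fell in both lines with no called difference held them in 14.2%, 10% and 38.8%. The motifs are short and can overlap each other, and a match describes the letters of the window and is not a measured binding site.

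Genes of DNA replication formed the second block of shared falls. Of 57 well measured members of that list, 44 fell in MDA-MB-231 against 51 in MDA-MB-453, the others were not called, and the difference was called lower in MDA-MB-453 for 42 and higher for 1. Their median change was -0.79 in MDA-MB-231 against -2.04 in MDA-MB-453. MCM10 (chr10:13161558-13211110, plus strand, GRCh38 with GENCODE 44, as for the positions of other genes), which helps to activate the replicative helicase, went from 117, 113 and 102 CPM to 44.6, 57.7 and 52.6 CPM in MDA-MB-231, a change of -1.10 ± 0.15, and from 510 counts to 0 in MDA-MB-453, at least 174-fold lower. Every treated MDA-MB-231 library stayed at 44.6 CPM or more and every treated MDA-MB-453 library was at 0.

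RRM2, the small subunit of ribonucleotide reductase, went from 452, 483 and 449.6 CPM to 144, 129.7 and 139 CPM in MDA-MB-231 and from 196, 199 and 188 CPM to 1.26, 0.274 and 1.202 CPM in MDA-MB-453. Its difference was -5.85 ± 0.26 (edgeR, adjusted p = 2.24e-23). TYMS, thymidylate synthase, differed by -4.69 ± 0.39, with reads that overlap ENOSF1 on the other strand, and CLSPN, the checkpoint adaptor claspin, by -4.57 ± 0.39. PRIM1, the small primase subunit, fell by 2.87 on the log2 scale in MDA-MB-231 and fell by 2.44 in the other line, and its difference of 0.44 ± 0.71 had a 95% interval of -1.001 to 1.87 and ran from -0.78 to 0.84 over 22 alternatives, at a level of 20.6 CPM or less in every library.

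The promoters of CLSPN and of E2F1 carry E2F letters near the start, in capitals here, and both also hold CCAAT letters at 3 places.
CLSPN, chr1:35769929-35770228, minus strand, E2F match starting 5 bases before the start: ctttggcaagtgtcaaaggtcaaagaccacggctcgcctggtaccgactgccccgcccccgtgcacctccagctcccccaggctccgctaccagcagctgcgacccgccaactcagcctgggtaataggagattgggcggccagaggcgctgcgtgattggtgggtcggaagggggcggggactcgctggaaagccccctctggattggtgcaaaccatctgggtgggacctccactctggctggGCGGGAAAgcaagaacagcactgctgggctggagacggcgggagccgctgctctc
E2F1, chr20:33686336-33686635, minus strand, E2F matches starting 33 and 20 bases before the start: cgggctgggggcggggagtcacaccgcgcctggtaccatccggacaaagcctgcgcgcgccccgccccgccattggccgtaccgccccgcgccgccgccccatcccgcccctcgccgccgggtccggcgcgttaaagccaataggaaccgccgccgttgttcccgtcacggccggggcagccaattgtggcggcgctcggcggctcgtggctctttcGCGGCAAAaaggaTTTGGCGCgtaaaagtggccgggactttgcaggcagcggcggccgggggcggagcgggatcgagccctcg

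Within the CDK4/6 and RB pathway itself, 22 of 32 listed genes were well measured. In MDA-MB-231, 1 rose and 9 fell, in MDA-MB-453, 3 rose and 13 fell, and the difference was called lower in MDA-MB-453 for 9 and higher for 2. Of the drug's targets, CDK4 changed by -0.15 ± 0.10 in MDA-MB-231 against -0.25 ± 0.10 in MDA-MB-453, neither called, while CDK6 was called in MDA-MB-453 only, where it went from 7.01, 6.02 and 6.09 CPM to 10.1, 9.58 and 11.1 CPM, a rise of 0.77 ± 0.28 (edgeR, adjusted p = 0.0295). CDK6 reached 10 CPM in MDA-MB-453 in the abemaciclib group only, so the level rule took it in through this same rise. In the MDA-MB-231 libraries CDK6 went from 172, 166 and 158 CPM to 110.4, 121 and 164 CPM, all far above MDA-MB-453. RB1 itself was at 58.7, 61.9 and 58.7 CPM under DMSO and 42.2, 41.9 and 32.8 CPM with abemaciclib in MDA-MB-453, a fall that was called, and changed by -0.38 ± 0.16 in MDA-MB-231, which was not (adjusted p = 0.0611). The difference of -0.15 ± 0.22 between these changes did not pass the test either. CCND1, the cyclin D1 partner of CDK4, rose in both lines, by 0.81 ± 0.08 and 0.53 ± 0.08, with no overlap between groups.

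The E2F genes split by member. E2F1 went from 38.7, 41.5 and 55.8 CPM to 24.1, 22.8 and 29.9 CPM in MDA-MB-231 and from 102, 106 and 118 CPM to 11.4, 13.96 and 16.2 CPM in MDA-MB-453, a difference of -2.06 ± 0.25 (edgeR, adjusted p = 6.86e-09). E2F2 fell from 65.2, 54.2 and 46.8 CPM to 0.253, 0.274 and 0.902 CPM in MDA-MB-453 and differed by -4.74 ± 0.61. E2F3 rose in MDA-MB-453 only, by 0.65 ± 0.18, and the repressor E2F6 and the pocket-protein partner E2F4 were called in neither line. Of the other S-phase regulators, CCNE2 (cyclin E2) went from 162 counts to 1 in MDA-MB-453, a ratio of 166 with a 95% interval of 29.3 to 6590, and the differences were -5.60 for CCNE2, -2.62 for FBXO5 (the APC/C inhibitor EMI1), -1.36 for the phosphatase CDC25A, -1.10 for CDK2 and -0.55 for the E2F partner TFDP1. SKP2, the ubiquitin ligase subunit that marks p27 for degradation, fell by 1.57 in MDA-MB-231 against 1.00 in MDA-MB-453, with a difference of 0.57 ± 0.32 that was not called. The CDK4/6 inhibitor proteins CDKN2C (p18) and CDKN2D (p19) fell in MDA-MB-453 only, by 4.61 and 1.73, against -0.33 ± 0.20 and -0.18 ± 0.25 in MDA-MB-231. CCND3 fell in both lines with no called difference, TFDP2 fell in MDA-MB-453 with no called difference, and CDKN1A, CDKN1B and MYC were called in neither line.

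**Figure D2:**
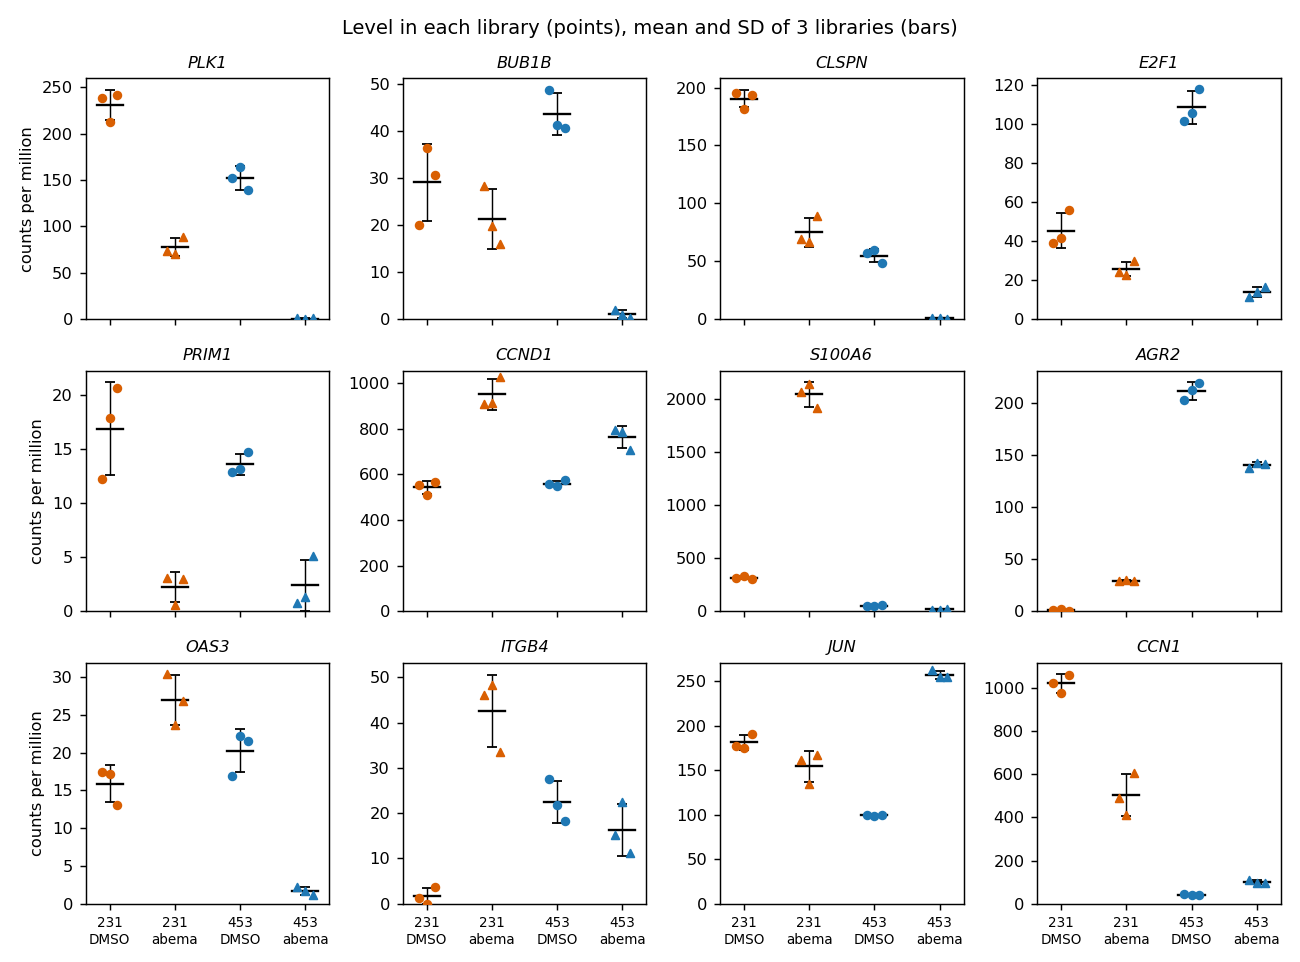
Level in every DMSO and abemaciclib library of both lines for 12 genes of the different direction patterns, in CPM on a linear axis from 0, with 1 point per library and bars for the mean and SD of 3 libraries. PLK1 is at 70.5 to 88.5 CPM in the treated MDA-MB-231 libraries and at 0.759 CPM or less in the treated MDA-MB-453 libraries, and S100A6 moves up in one line and down in the other with no overlap of groups.

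The DNA repair list followed the same order: of 31 well measured genes, 19 fell in MDA-MB-231 against 24 in MDA-MB-453, the others were not called, and the median difference was -0.92. EXO1, an exonuclease of mismatch repair and recombination, went from 19.5, 25.1 and 25.4 CPM to 7.95, 10.3 and 14.5 CPM in MDA-MB-231 and from 21.6, 17.5 and 22.99 CPM to 0.506, 1.37 and 0.301 CPM in MDA-MB-453. EXO1, the helicase BRIP1 and BRCA1 fell in both lines and further in MDA-MB-453, with differences of -3.58 ± 0.51, -2.79 ± 0.49 and -2.27 ± 0.46. Outside these lists, NMU, which encodes the neuropeptide neuromedin U, fell by 0.74 in MDA-MB-231 and from 135 counts to 0 in MDA-MB-453, at least 46-fold.

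The shared falls with no called difference between lines included VPS9D1-AS1, a non-coding RNA, at -1.57 ± 0.26 and -1.68 ± 0.29, the mitochondrial arginase gene ARG2 at -1.54 ± 0.37 and -2.69 ± 0.47, and the histone H2A gene H2AC20 at -1.46 ± 0.39 and -2.34 ± 0.43. For ARG2 and H2AC20 the 95% intervals of the difference were -2.37 to 0.07 and -2.08 to 0.32, so that these data do not show equal falls. Falls that were larger in MDA-MB-231 were few, and the differences small: 0.74 ± 0.14 for SLC3A2, the heavy chain of amino acid transporters, 0.72 ± 0.13 for the co-chaperone STIP1 and 0.66 ± 0.20 for TSEN15, a tRNA splicing subunit. SLC3A2 went from 297, 288 and 300.3 CPM to 147, 162 and 133 CPM in MDA-MB-231 and from 183, 169 and 168 CPM to 135, 137 and 134 CPM in MDA-MB-453.

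Shared rises without a called difference were led by CHURC1, at 2.04 ± 0.25 in MDA-MB-231 against 1.95 ± 0.22 in MDA-MB-453, the non-coding AL365181.2, TMEM132A and DUSP6. DUSP6, the phosphatase that switches off ERK, went from 145, 136 and 153 CPM to 400.3, 416 and 478 CPM in MDA-MB-231 and from 52.02, 55.8 and 50.96 CPM to 201, 156 and 171 CPM in MDA-MB-453. Its difference was 0.24 ± 0.15, with a 95% interval of -0.06 to 0.54. The lysosome list was the one with the most shared rises: 29 of 42 well measured genes rose in MDA-MB-231, 26 in MDA-MB-453 and 23 in both, with medians of 0.73 and 0.66. Among its exceptions were LIPA (lysosomal acid lipase) and CTSC (cathepsin C), which rose in MDA-MB-231 and fell in MDA-MB-453, with differences of -2.73 ± 0.37 and -1.88 ± 0.29, and NPC1, the cholesterol exporter, which rose in MDA-MB-453 only. The exons of LIPA overlap those of IFIT2 and IFIT3 on the other strand. TPP1, a lysosomal peptidase, rose in both lines and by 2.10 ± 0.22 against 0.70 ± 0.17. Of 28 lysosome promoters, 17.9% held the CLEAR letters TCACGTGA, against 1.04% of all promoters.

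The 69 genes with the larger rise in MDA-MB-231 had median changes of 1.45 there and 0.59 in MDA-MB-453. AQP3 (chr9:33441156-33447596, minus strand), a channel for water and glycerol, went from 4.27, 1.46 and 1.82 CPM to 62.7, 77.8 and 87.7 CPM in MDA-MB-231 and from 4563, 4423 and 4344 CPM to 5099, 4616 and 4886 CPM in MDA-MB-453, so that the treated MDA-MB-231 libraries remained far below the untreated libraries of the other line. AQP3 met the level rule in MDA-MB-231 through its abemaciclib group only. Its change was 4.91 ± 0.18 against 0.22 ± 0.08, a difference of -4.69 ± 0.20 (edgeR, adjusted p = 6.77e-24). The adhesion receptor gene ADGRG1 showed the same order, with a difference of -1.95 ± 0.27, as did DDIT4, an inhibitor of mTORC1, at -1.18 ± 0.26. The 15 genes that rose further in MDA-MB-453 were led by CLU (clusterin, a secreted chaperone), SAT1 (the polyamine acetyltransferase) and ATRX (a chromatin remodeller). CLU went from 74.2, 59.4 and 80.9 CPM to 316, 288 and 336 CPM in MDA-MB-453, a rise of 2.22 ± 0.14, and rose by 0.66 ± 0.16 in MDA-MB-231. The differences were 1.17 ± 0.23 for SAT1 and 0.99 ± 0.20 for ATRX.

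The 349 genes that rose in MDA-MB-231 only had a median change of 0.79 there and -0.09 in MDA-MB-453. ITGB4 (chr17:75721328-75757818, plus strand), the integrin subunit of hemidesmosomes, went from 1.22, 0 and 3.64 CPM to 45.99, 48.3 and 33.4 CPM in MDA-MB-231, where it was scarcely detected before treatment, and from 27.5, 21.9 and 18.3 CPM to 15.2, 22.4 and 11.1 CPM in MDA-MB-453. Its change was 4.70 ± 0.41 against -0.38 ± 0.30, a difference of -5.08 ± 0.53 (edgeR, adjusted p = 1.43e-10). ITGB4 reached 10 CPM in MDA-MB-231 in the abemaciclib group only, so the level rule took it in through this same rise. The orphan receptor gene GPRC5C, the calcium channel gene ORAI3 and CA11 were taken in the same way. They began below 3 CPM in every untreated MDA-MB-231 library, and their differences were -3.27 ± 0.40, -3.18 ± 0.55 and -3.08 ± 0.55. Of the 13 integrin and hemidesmosome genes, 10 rose in MDA-MB-231 against 8 in MDA-MB-453, 6 of them in both. ITGA3, which pairs with integrin beta 1, rose in MDA-MB-231 only, from 99.4, 99.6 and 96.3 CPM to 323, 303 and 338 CPM, and ITGA6, the partner of ITGB4, in MDA-MB-453 only, from 85.9, 92.5 and 94.5 CPM to 124, 140.4 and 158 CPM, while ITGB5 had opposite changes of 0.39 ± 0.14 and -0.45 ± 0.13.

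Luminal keratin and junction genes were split between the patterns. Of 17 epithelial and luminal genes, 9 rose and 1 fell in MDA-MB-231, 7 rose and 2 fell in MDA-MB-453, and 3 rose in both. KRT19 went from 102, 82.3 and 74.5 CPM to 230.2, 229 and 226 CPM in MDA-MB-231, with no overlap, and from 1984, 1836 and 1893 CPM to 1907, 2098 and 1895 CPM in MDA-MB-453, with overlap. CLDN4 (claudin 4) differed by -1.25 ± 0.26. KRT80 went the other way with a rise in MDA-MB-453 only, and its difference ran from 1.33 to 1.67 over 22 alternatives. The list's median difference of -0.37 was 0.25 when genes had to reach 10 CPM under DMSO in each line, so that its sign depends on which genes are counted as well measured.

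The 320 genes that fell in MDA-MB-231 only had a median change of -0.68 there and 0.12 in MDA-MB-453. Their leading members included 2 genes of the mitochondrial genome, MT-TM (a tRNA) and MT-ND6 (the complex I subunit encoded on the light strand). MT-ND6 went from 138, 187 and 133 CPM to 40.03, 27.6 and 57.3 CPM in MDA-MB-231 and from 41.5, 40.8 and 55.1 CPM to 35.7, 48.99 and 61.02 CPM in MDA-MB-453, and the differences were 2.71 ± 0.35 for MT-TM and 2.04 ± 0.27 for MT-ND6. These genes fell while the mitochondrial share of counts was higher with abemaciclib, as given above, and mitochondrial genes have near-identical copies in the nuclear genome, so their counts are uncertain. SDE2 and TMEM39A, at 4.66 to 6.99 CPM in the treated MDA-MB-231 libraries and 10.22 CPM or more in the treated MDA-MB-453 libraries, differed by 2.12 ± 0.40 and 1.91 ± 0.47. The count of 320 fell to 208, 208 and 181 when MDA-MB-231 DMSO replicate 1, DMSO replicate 3 or abemaciclib replicate 1 was left out.

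In MDA-MB-453 only, 339 genes rose, with a median change of 0.71 there and -0.13 in MDA-MB-231. INPP4B, a phosphatase of the phosphoinositide pathway, went from 2.63, 3.56 and 2.49 CPM to 19.5, 18.9 and 23.1 CPM in MDA-MB-453 and from 21.03, 18.1 and 23.03 CPM to 19.9, 16.7 and 15.9 CPM in MDA-MB-231, a difference of 3.14 ± 0.44 (edgeR, adjusted p = 2.37e-07). NUCB2, the precursor of nesfatin, went from 46.2, 48.99 and 56.5 CPM to 172, 178 and 179.5 CPM and differed by 1.97 ± 0.19, and the endosomal adaptor gene APPL2 differed by 2.01 ± 0.51. Without MDA-MB-453 abemaciclib replicate 3 the count of 339 was 222.

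Immediate-early genes of the MAPK pathway were among these rises. Of 17 well measured genes of MAPK feedback and AP-1, 5 rose and 3 fell in MDA-MB-231, 11 rose and 1 fell in MDA-MB-453, and the difference was called higher in MDA-MB-453 for 8 and lower for 1. JUN went from 99.4, 98.5 and 99.7 CPM to 262, 255 and 254 CPM in MDA-MB-453, with no overlap, and from 178, 175 and 191 CPM to 161, 135 and 167 CPM in MDA-MB-231. Its change of 1.46 ± 0.10 against -0.23 ± 0.10 gave a difference of 1.70 ± 0.14 (edgeR, adjusted p = 1.06e-13). JUNB and the phosphatase gene DUSP1 did the same, with differences of 1.24 ± 0.20 and 2.01 ± 0.45. DUSP4, another phosphatase of ERK, was the exception, with a change of 0.38 ± 0.12 in MDA-MB-231 against -1.07 ± 0.16 in MDA-MB-453. AP-1 letters (TGANTCA) were in 5.49% of the promoters of the genes that rose in MDA-MB-453 only (15 of 273), in 3.76% of those of all matched genes and in 7.76% of all promoters.

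The 395 genes that fell in MDA-MB-453 only held, beside the mitotic genes above, 38 cytosolic ribosomal protein genes. They also held 11 nuclear genes of the respiratory chain and 4 of the glycolysis and hypoxia list. The counts by list that follow take all calls in a line, so they include opposite and shared changes. Of 74 well measured ribosomal protein genes, 62 fell and 1 rose in MDA-MB-453, 2 fell and 17 rose in MDA-MB-231. The difference was called lower in MDA-MB-453 for 53. The sizes were modest, with medians of 0.06 in MDA-MB-231 against -0.39 in MDA-MB-453, and the median difference was negative in each of 26 settings, from -0.59 to -0.38. In the separate libraries with fulvestrant, described below, the medians were -0.028 in MDA-MB-231 against -0.295 in MDA-MB-453, and the median difference was -0.215. RPS19 went from 2532, 2557 and 2594 CPM to 1225, 1072 and 1007 CPM in MDA-MB-453 and from 3184, 3241 and 3178 CPM to 3833, 3766 and 3297 CPM in MDA-MB-231, a difference of -1.31 ± 0.12. RPSA, RPS29 and RPS21 differed by -1.34 ± 0.13, -1.32 ± 0.10 and -1.03 ± 0.10, the last pair with a called rise in MDA-MB-231. Ribosomal protein genes have many processed pseudogenes, so their counts are uncertain where the counting split reads between copies.

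Of 73 nuclear genes of the respiratory chain, 31 rose and 9 fell in MDA-MB-231, 2 rose and 38 fell in MDA-MB-453, and the difference was lower in MDA-MB-453 for 40 and higher for 1. By pattern, 17 rose in MDA-MB-231 only, 11 fell in MDA-MB-453 only, and 11 rose in MDA-MB-231 and fell in MDA-MB-453. The median difference was -0.475, against -0.191 with fulvestrant, where the median change of MDA-MB-231 was -0.007. NDUFB1, a subunit of complex I, went from 147, 138 and 154 CPM to 236, 261 and 257 CPM in MDA-MB-231 and from 469.9, 454 and 442 CPM to 365, 312 and 319 CPM in MDA-MB-453. ATP5ME and ATP5PO, subunits of the ATP synthase, also had opposite called changes, with differences of -1.14 ± 0.13 and -1.03 ± 0.14. NDUFB8 fell in MDA-MB-453 only, with a difference that ran from -1.30 to -0.84 over 22 alternatives. Genes encoded in the mitochondrial genome moved the other way in MDA-MB-453: of 15, 12 rose there, 9 rose and 1 fell in MDA-MB-231, and 8 differences were higher in MDA-MB-453 against 2 lower, beside the mitochondrial shares given above. With library totals in place of TMM factors the differences were 6 higher and 5 lower. MT-ND1 went from 1626, 1539 and 1616 CPM to 2666, 3217 and 3369 CPM in MDA-MB-453 and from 2382, 2570.0 and 2274 CPM to 2097, 1671 and 2814 CPM in MDA-MB-231, where the groups overlapped. MT-ND2 and MT-ATP8 differed by 1.05 ± 0.11 and 1.08 ± 0.29.

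In the glycolysis and hypoxia list of 25 genes, 9 rose and 2 fell in MDA-MB-231, 3 rose and 10 fell in MDA-MB-453, and 11 differences were lower in MDA-MB-453 against 1 higher. LDHA, lactate dehydrogenase A, went from 912, 717 and 846 CPM to 328, 335 and 308 CPM in MDA-MB-453 and from 668, 638 and 643 CPM to 629, 645 and 615 CPM in MDA-MB-231, a difference of -1.22 ± 0.14 (edgeR, adjusted p = 1.08e-09). The phosphofructokinase gene PFKP fell in MDA-MB-453 only as well, with a difference that ran from -1.39 to -1.11 over 22 alternatives. NDRG1 had opposite changes, 1.66 ± 0.14 and -0.85 ± 0.13. In the ATF4 list, which holds genes of amino acid supply and stress, 13 of 26 fell and 1 rose in MDA-MB-231, and 11 fell and 5 rose in MDA-MB-453. PHGDH, the first enzyme of serine synthesis, fell in MDA-MB-453 only, from 83.6, 82.7 and 96.1 CPM to 17.2, 10.1 and 15.9 CPM, as did the alanine transaminase gene GPT2, whereas the transcription factor gene CEBPG fell in MDA-MB-231 only. The differences were -2.11 ± 0.28, -0.97 ± 0.23 and 1.20 ± 0.30. PPP1R15A, whose product brings phosphatase to eIF2 alpha, rose in MDA-MB-453 only (0.78 ± 0.29), with overlapping libraries there. Its difference ran from 0.70 to 1.58 over 22 alternatives and was called in 12 of them.

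Of the 148 genes that rose in MDA-MB-231 and fell in MDA-MB-453, the widest differences were those of AGR2, OAS3 and S100A6, and the median changes were 0.56 and -0.63. S100A6 (chr1:153534599-153536244, minus strand), a small calcium-binding protein, went from 311, 330.3 and 308 CPM to 2063, 2142 and 1916 CPM in MDA-MB-231 and from 54.6, 47.9 and 58.4 CPM to 15.9, 15.1 and 23.1 CPM in MDA-MB-453. The groups were apart in both lines, and the changes of 2.69 ± 0.10 and -1.49 ± 0.15 gave a difference of -4.18 ± 0.18 (edgeR, adjusted p = 1.81e-24). AGR2 (chr7:16791811-16833433, minus strand), a protein disulfide isomerase of secretory epithelia, went from 0.914, 2.34 and 0.606 CPM to 28.96, 30.1 and 28.8 CPM in MDA-MB-231 and from 202, 212 and 219 CPM to 138, 142 and 142 CPM in MDA-MB-453, a difference of -4.96 ± 0.31. MELTF (melanotransferrin) and SECTM1 changed in opposite ways too: 2.14 ± 0.26 and -1.94 ± 0.24 for MELTF, 1.79 ± 0.25 and -2.13 ± 0.23 for SECTM1. LGALS1 (galectin 1), THBS1 (thrombospondin 1) and WWTR1 (the YAP relative TAZ) were of this kind too, with differences of -2.23 ± 0.13, -1.42 ± 0.22 and -1.88 ± 0.27. Only 4 genes of the mesenchymal and matrix list were well measured in both lines, TPM1 among them, which rose in MDA-MB-453 and was not called in MDA-MB-231, with a difference that was called in 8 of 22 alternatives.

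Antigen presentation and the interferon response also held genes that rose in MDA-MB-231 and not in MDA-MB-453. Of 11 well measured antigen presentation genes, 7 rose and 1 fell in MDA-MB-231, 3 rose and 4 fell in MDA-MB-453, and the difference was lower in MDA-MB-453 for 7 and higher for 2. HLA-C went from 49.99, 66.6 and 42.7 CPM to 148, 139 and 110.2 CPM in MDA-MB-231 and from 282, 289 and 266 CPM to 181, 134 and 151 CPM in MDA-MB-453, a difference of -2.07 ± 0.19 (edgeR, adjusted p = 5.52e-12). HLA-E and the proteasome activator gene PSME1 rose in MDA-MB-231 only. HLA genes are close copies of each other and vary between cell lines, so that their levels depend on how the counting treated shared reads. PSME1, whose exons overlap those of EMC9 on the other strand, went from 92.1, 104 and 96.95 CPM to 235, 269.8 and 255 CPM in MDA-MB-231 and from 163, 144 and 162 CPM to 139, 149 and 128 CPM in MDA-MB-453.

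Only 19 of the 76 listed interferon genes were well measured in both lines. Of these, 9 rose and 1 fell in MDA-MB-231, 4 rose and 4 fell in MDA-MB-453, and 6 differences were lower in MDA-MB-453 against 2 higher. OAS3, a sensor of double-stranded RNA, went from 17.4, 17.2 and 13.03 CPM to 30.4, 23.7 and 26.9 CPM in MDA-MB-231 and from 16.9, 22.2 and 21.6 CPM to 2.28, 1.64 and 1.202 CPM in MDA-MB-453, where all treated libraries were at 2.28 CPM or less. Its difference was -4.20 ± 0.45 (edgeR, adjusted p = 3.49e-10). IFITM2, an antiviral membrane protein, had opposite changes of 0.99 ± 0.10 and -0.55 ± 0.11, and DTX3L rose in MDA-MB-231 only. IRF7, a transcription factor of the same response, changed in MDA-MB-231 only, where it fell by 1.62 on the log2 scale.
The promoter of OAS3 holds the letters of the interferon-stimulated response element, GAAANNGAA, at 2 places, in capitals here. It is shown because such letters were in 53.8% of 13 interferon promoters and 62.5% of 8 antigen presentation promoters, against 8.29% of all promoters. The same promoter also holds E2F letters from 16 bases before the start, which overlap the later interferon match. Letters of the sterol response element start 79 bases before the start, and neither of these is marked.
OAS3, chr12:112938224-112938523, plus strand, matches starting 143 and 12 bases before the start: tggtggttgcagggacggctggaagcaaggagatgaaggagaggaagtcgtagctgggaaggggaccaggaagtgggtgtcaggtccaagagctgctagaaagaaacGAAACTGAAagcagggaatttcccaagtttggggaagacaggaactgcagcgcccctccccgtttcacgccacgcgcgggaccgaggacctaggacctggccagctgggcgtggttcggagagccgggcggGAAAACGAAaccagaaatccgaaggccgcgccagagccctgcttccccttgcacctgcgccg

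In genes of lipid synthesis, 8 of 30 rose and 3 fell in MDA-MB-231, 5 rose and 16 fell in MDA-MB-453, and 13 differences were lower in MDA-MB-453 against 3 higher. The median difference was -0.324, against -0.023 with fulvestrant, where the medians were -0.226 in MDA-MB-231 against -0.211 in MDA-MB-453. SCD, the stearoyl-CoA desaturase, went from 209, 183 and 186 CPM to 383, 406 and 398 CPM in MDA-MB-231 and from 799, 721 and 689 CPM to 612, 526 and 541 CPM in MDA-MB-453. The elongase gene ELOVL6 and the sterol reductase gene TM7SF2 had opposite changes too, with differences of -2.42 ± 0.28 and -2.30 ± 0.32, and LSS (lanosterol synthase) rose in MDA-MB-231 only, with overlapping libraries and a difference of -1.11 ± 0.35.

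The 122 genes with the reverse pattern, which fell in MDA-MB-231 and rose in MDA-MB-453, had medians of -0.51 and 0.50. IER5L, an immediate-early gene, went from 14.02, 14.6 and 14.2 CPM to 4.83, 4.86 and 5.48 CPM in MDA-MB-231 and from 38.3, 41.9 and 36.3 CPM to 151, 161 and 136 CPM in MDA-MB-453, apart in both lines, a difference of 3.52 ± 0.26 (edgeR, adjusted p = 3.92e-15). SGK1, a kinase induced by serum and glucocorticoids, and TXNDC16, a thioredoxin-domain protein of the endoplasmic reticulum, differed by 3.56 ± 0.48 and 2.85 ± 0.33. CCN1, a matrix protein and target of YAP, went from 1025, 978 and 1063 CPM to 491, 414 and 606 CPM in MDA-MB-231 and from 47.05, 38.6 and 40.7 CPM to 112, 97.2 and 94.7 CPM in MDA-MB-453. In the YAP and TEAD list of 13 genes, 2 rose and 4 fell in MDA-MB-231 and 2 rose and 3 fell in MDA-MB-453. Beside the shares of all genes given above, counts of this size show no direction of the list. AMOTL2 fell in MDA-MB-231 only and AMOTL1 in MDA-MB-453 only, with differences between lines of 1.31 ± 0.23 and -1.13 ± 0.30. The mitochondrial tRNA genes MT-TF and MT-TP were also of this kind, with differences of 4.06 ± 0.31 and 2.50 ± 0.28, and the libraries of MT-TF ran 696, 765 and 738 CPM under DMSO and 1655, 3891 and 3127 CPM with abemaciclib in MDA-MB-453, which is a wide spread. The count of 122 moved most of the patterns when a library was left out: it was 52 to 73 when MDA-MB-231 DMSO replicate 1, 2 or 3, MDA-MB-231 abemaciclib replicate 1, MDA-MB-453 DMSO replicate 1 or 3, or MDA-MB-453 abemaciclib replicate 2 or 3 was left out, and 80 with library totals in place of TMM factors. The reference library of the TMM factors was one of MDA-MB-453 in these 8 fits, which kept 52 to 72 of the 122 genes, and one of MDA-MB-231 in the reported fit. The other 2 fits with a reference in MDA-MB-453 kept 97 and 94, the 2 with one in MDA-MB-231 kept 70 and 91, and moving the reference alone to MDA-MB-453 kept 88.

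In the p53 list, 5 of 19 genes rose and 4 fell in MDA-MB-231, 6 rose and 6 fell in MDA-MB-453, and 3 differences were lower in MDA-MB-453: -1.04 ± 0.28 for the nuclease gene AEN, -0.65 ± 0.24 for ZMAT3 and -0.51 ± 0.18 for RPS27L. Beside the shares of all genes given above, these rises and falls show no direction of the list. The list's median difference had no stable sign, being positive in 16 of 26 settings. Of the NF-kB and cytokine list 4 genes were well measured.

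**Figure D3:**
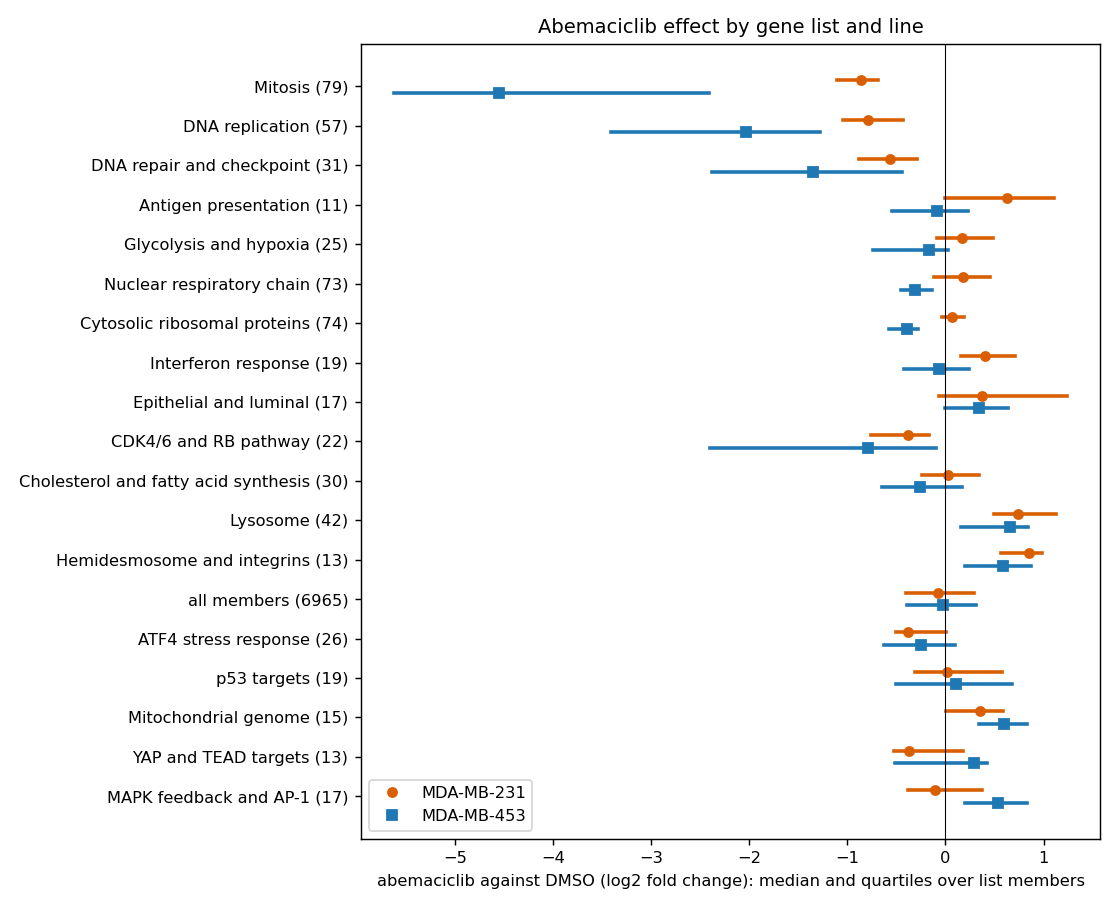
Median log2 change with abemaciclib for the well measured genes of each list (marks, with bars from the lower to the upper quartile over genes), by line, with the number of genes in parentheses. The mitosis median lies at -0.86 in MDA-MB-231 against -4.55 in MDA-MB-453, the lysosome medians lie close together at 0.73 and 0.66, and the ribosomal protein and respiratory chain medians lie on opposite sides of 0, as they did not with fulvestrant.

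The 12 libraries with fulvestrant share no library with the 12 above and give the same contrast, abemaciclib with fulvestrant against fulvestrant alone, in a separate fit. The calls above are not wholly separate from them, since the reported fit used all 24 libraries for its filter, scaling and spread. With the 12 DMSO and abemaciclib libraries alone, the response of MDA-MB-453 was higher for 748 genes and lower for 1419. In that fit the difference between lines was called for 18.6% of 12237 genes tested, 6.87% higher in MDA-MB-453 and 11.7% lower. Across the 6965 genes the fitted differences had a Pearson correlation of 0.741 and a Spearman correlation of 0.508 between the backgrounds, and the changes within a line had Pearson correlations of 0.829 in MDA-MB-231 against 0.890 in MDA-MB-453, given as descriptions across genes. Of the 1228 genes with the lower response in MDA-MB-453, 1117 (91%) had the same sign with fulvestrant, 667 were called with it and 1 was called the other way. Of the 867 with the higher response, 575 (66.3%) had the same sign, 246 were called with it and 42 the other way. Over all 6965 genes, 4646 (66.7%) had the same sign, so the share among the genes with the higher response was close to that of all genes.

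By pattern, and beside the 66.7% of all genes, the genes with the larger fall in MDA-MB-453 had the same sign for 224 of 239 and a call for 172. Among the genes that rose in MDA-MB-231 and fell in MDA-MB-453, 144 of 148 had the same sign and 120 were called, and among those with the reverse pattern, 80 of 122 and 49, with 5 called the other way. The rises in MDA-MB-231 only gave 314 of 349 and 169, and the falls 220 of 320 and 84. The falls in MDA-MB-453 only gave 344 of 395 and 162, and the rises 217 of 339 and 90. The shares of the reverse pattern, of the falls in MDA-MB-231 only and of the rises in MDA-MB-453 only, at 65.6%, 68.8% and 64%, were near that of all genes. S100A6 differed by -4.17 with fulvestrant, PLK1 by -4.61, JUN by 1.38 and CCN1 by 2.96. For ATRX the difference with fulvestrant was -0.18 (edgeR, adjusted p = 0.647), for E2F3 0.00, for CDK6 -0.09, and MT-ATP8 had the opposite sign at -1.33 (adjusted p = 0.000351).

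**Figure D4:**
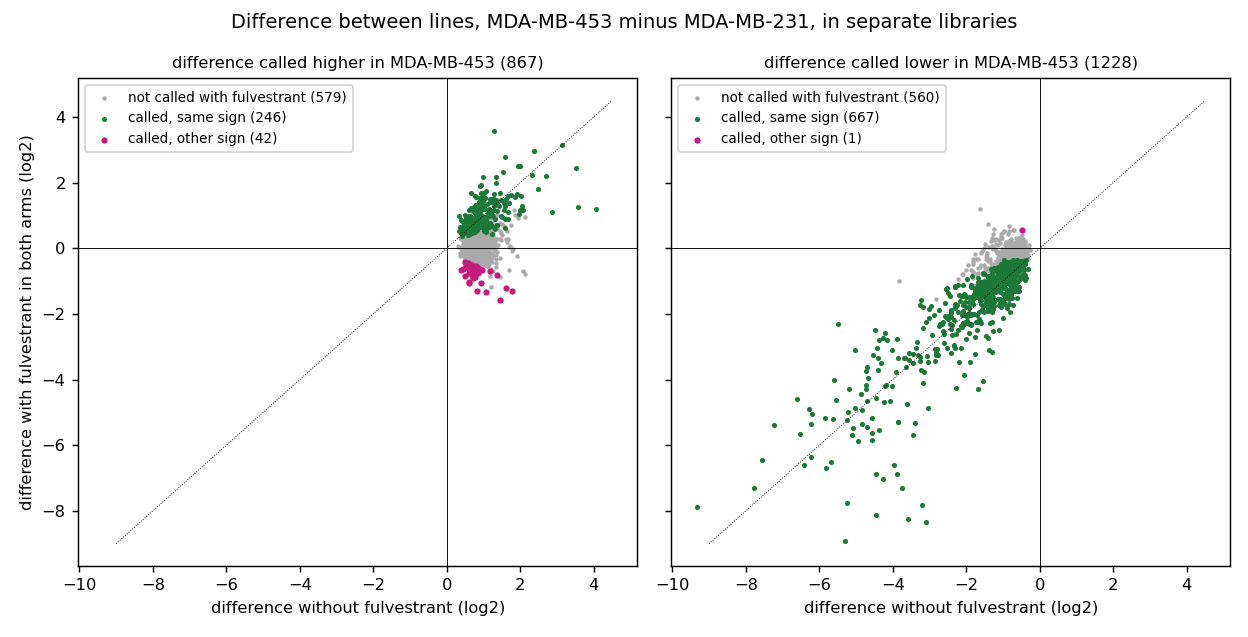
Difference between lines in the abemaciclib change, MDA-MB-453 minus MDA-MB-231 on the log2 scale, in the DMSO background (x axis) against the fulvestrant background (y axis), 1 point per gene, for the genes called higher (left panel) and lower (right panel) in MDA-MB-453 without fulvestrant. Genes with the lower response in MDA-MB-453 keep their sign in 1117 of 1228 cases and those with the higher response in 575 of 867, against 4646 of all 6965 genes.

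Transcript length and base composition moved with the difference. Over the 6828 genes with a length, the Spearman correlation of the difference was 0.230 with length and -0.231 with GC content, given as a description across genes. The change in MDA-MB-453 had correlations of 0.264 and -0.117, and that in MDA-MB-231 of 0.014 and 0.152. Genes with the higher response in MDA-MB-453 had a median length of 4880 nt and 43.1% GC, those with the lower response 2954 nt and 50.9%, and all genes 3858 nt and 47.3%. The rises in MDA-MB-453 only had a median length of 5517 nt and the falls 2440 nt. Library by library, the deviation of the levels from the mean of the line correlated with length at -0.238, -0.239 and -0.267 in the MDA-MB-453 DMSO group and at 0.075, 0.207 and 0.228 in its abemaciclib group. In the MDA-MB-453 fulvestrant group it was 0.008, 0.043 and -0.210, so that 1 of those 3 libraries lay near the DMSO libraries and the others did not. In MDA-MB-231 the DMSO libraries were at -0.058 to 0.012 and the abemaciclib libraries at -0.064 to 0.110.

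With a smooth trend on length and GC taken out of the counts, an alternative chosen after seeing the data, the difference was called for 1991 genes, with the response of MDA-MB-453 higher for 838 and lower for 1153. Of the 239 larger falls in MDA-MB-453, 224 kept their pattern, and of the 1156 genes with the same direction, 978 did. The other patterns kept fewer: 428 of 734 for MDA-MB-453 only, 379 of 669 for MDA-MB-231 only and 185 of 270 for opposite changes. Of the ribosomal protein genes 46 in place of 62 fell in MDA-MB-453, and of the respiratory chain genes 21 in place of 38, while 47 and 36 differences were called lower in MDA-MB-453. The part of length, GC content or RNA quality in these changes was not tested.

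**Figure D5:**
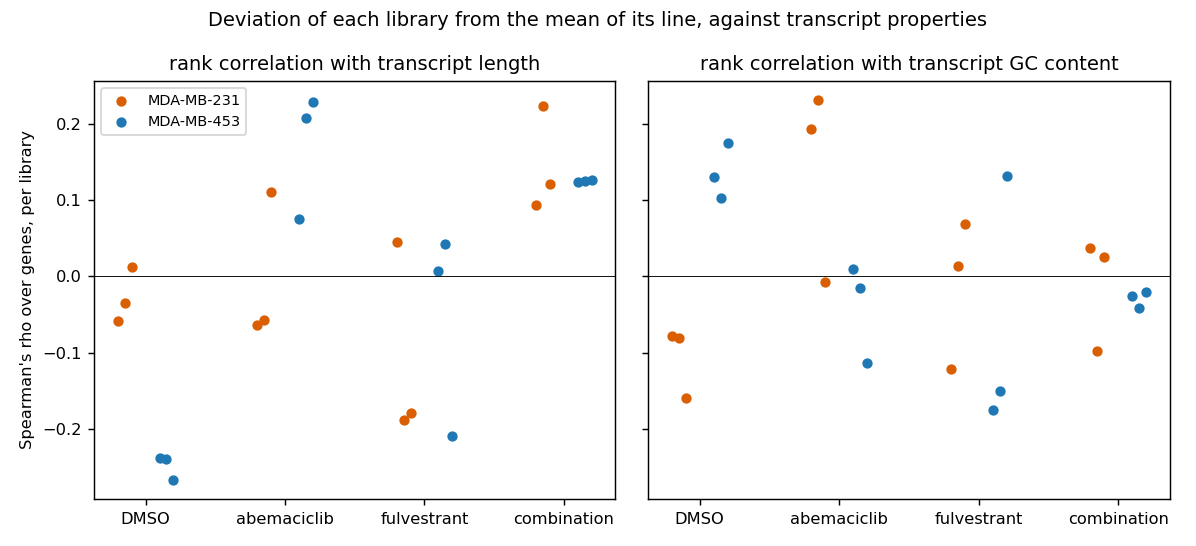
Spearman correlation across genes between transcript length or GC content (panels) and the deviation of each library from the mean of its line, 1 point per library, by line and treatment. In MDA-MB-453 the 3 DMSO libraries lie between -0.267 and -0.238 and the 3 abemaciclib libraries between 0.075 and 0.228, while in MDA-MB-231 both groups lie between -0.0641 and 0.110.

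The rule on levels let in genes through a single group. Of the 6965 genes, 1026 (14.7%) reached 10 CPM in only 1 group of a line, and 125 of the 239 with the larger fall in MDA-MB-453 (52.3%) were among these, being below 10 CPM there after treatment. So were 21 of the 69 with the larger rise in MDA-MB-231 (30.4%) and 65 of the 349 that rose in MDA-MB-231 only (18.6%). AQP3, ITGB4, GPRC5C, ORAI3, CA11 and AGR2 reached it in MDA-MB-231 in the abemaciclib group only, and CDK6 and INPP4B in MDA-MB-453. Among the genes that fell, PLK1, PTTG1, RRM2, MCM10, BUB1B, E2F2 and OAS3 were some that reached it in MDA-MB-453 in the DMSO group only. IER5L did so in MDA-MB-231. Such a gene had to differ between groups, so the counts by pattern describe the genes that the rule let in. The p-value of such a gene is not separate support for its change. Some named differences lost their call in more alternatives than the one that required over 1.5-fold: of 22 alternatives, TPM1 was called in 8, PPP1R15A in 12, ZMAT3 in 14, TFDP1 in 15, RPS27L in 17, ITGA6 and TSEN15 in 18, IRF7 and LSS in 19, and E2F3 and NPC1 in 20, and MT-ATP8 was called in 18 of 21. At the edge, ZNF276 was taken with a mean of 10.0 CPM in MDA-MB-453. Of the 131 genes chosen by the rule for naming, 51 have an exon that overlaps one of another gene on the other strand, and for these, DUSP6, S100A6, IER5L, MELTF and LIPA among them, reads of the pair cannot be told apart without the strand setting.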

How the data were processed

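RNA of both lines was sequenced by the authors as QuantSeq 3′ mRNA FWD libraries, single-end reads of 100 bases, trimmed with BBDuk, aligned with STAR to hg38 and counted with featureCounts on GENCODE 35. The strand setting is not given in the sources used here. The deposited values are raw counts per gene symbol, with 2873558 to 4158762 counts in each of 24 libraries; 1 row without a symbol held 0 counts. Such libraries count molecules near the 3′ end, so CPM was not divided by length, and levels are compared between libraries of the same gene only.

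CPM for the level rule came from library totals. Counts were fitted in edgeR 4.0.16 (R 4.3.3) by the quasi-likelihood method with TMM factors, filterByExpr, 1 mean per group and all 24 libraries, and tested by contrasts, with adjusted p under 0.05 called. The biological coefficient of variation was 13.1%. Replicate libraries differed beyond sampling noise in all 24 pairs (chi-square per degree of freedom 2.64 to 8.65), so none was merged. The fulvestrant libraries had a fit of their own. SE of a fitted change came from the same model, for all but the smallest changes as the change over the root of the test's F. For genes near 0 counts in a group this SE is smaller than counting error alone. Counting intervals are exact at 95%. Transcript length, GC content and positions came from GENCODE 44 and were matched by symbol; promoters came from RefSeq. Fits were tested on simulated data. Alternatives included DESeq2 1.42.0, other scalings and level rules, a replicate block and leaving out each library.

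The genes and lists were chosen with earlier results of these data known. Named genes are the 4 risers and 4 fallers with the largest smaller change in both lines and no called difference, the 3 with the largest difference of each kind of unequal shared change, the 4 of each line and direction changed in 1 line only, the 5 of each opposite kind, the CDK4/6 and RB list, and up to 4 called genes with the largest difference of every other list. Lists overlap in a few genes. Some genes are not reported here. Same-numbered replicates were not paired: the correlation of their deviations was -0.03 to 0.06.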

Additional observations from a re-analysis of the deposited data

Results flagged for a closer look

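For 37 genes the response to abemaciclib differed between the lines by the test of the difference itself, and these are the values, each the log2 change of MDA-MB-453 less that of MDA-MB-231. All come from the edgeR quasi-likelihood contrast at an adjusted p under 0.05 over all genes tested, and no explanation was tested for any of them.

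Among genes that fell in both lines, the difference was -9.34 for MCM10, -7.79 for NMU and -7.57 for CDCA3, fitted values that depend on the prior count because these genes were at 0 counts in the treated MDA-MB-453 libraries. It was 0.74 for SLC3A2, 0.72 for STIP1 and 0.66 for TSEN15, which fell further in MDA-MB-231. Among genes that rose in both lines, it was -4.69 for AQP3, -1.95 for ADGRG1, 1.56 for CLU, 1.17 for SAT1 and 0.99 for ATRX.

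Among genes that rose in MDA-MB-231 only, it was -5.08 for ITGB4, -3.27 for GPRC5C, -3.18 for ORAI3 and -3.08 for CA11, and among those that fell there only, 2.71 for MT-TM, 2.12 for SDE2, 2.04 for MT-ND6 and 1.91 for TMEM39A. Among genes that rose in MDA-MB-453 only, it was 3.14 for INPP4B, 2.01 for APPL2, 2.01 for DUSP1 and 1.97 for NUCB2, and among those that fell there only, -7.22 for IQGAP3, -6.29 for CIT, -5.50 for CENPI and -4.74 for BUB1B. IQGAP3 and CIT had 1 count and CENPI 2 counts over the treated MDA-MB-453 libraries, so the sizes of their differences are poorly known. Over 22 alternatives these ran from -9.21 to -6.76, -8.28 to -5.83 and -5.98 to -4.98.

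Among genes with opposite changes, it was 4.06 for MT-TF, 3.56 for SGK1, 3.52 for IER5L, 2.85 for TXNDC16, 2.50 for MT-TP, -4.96 for AGR2, -4.20 for OAS3, -4.18 for S100A6, -4.08 for MELTF and -3.92 for SECTM1.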

How the results depend on the processing

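The difference between lines was called for 1764 to 2318 genes under the other tool, scalings, filters, sample choices and level rules tried, against 2095, and for 1848 to 2112 when 1 library was left out. Requiring a change of more than 1.5-fold lowered all 5 counts: 614 differences, 165 genes with the same direction, 136 in MDA-MB-231 only, 237 in MDA-MB-453 only and 17 opposite. The scaling moved the split: TMM takes 1 library as its reference, here one of MDA-MB-231, and with a reference in MDA-MB-453, chosen after seeing the data, the split was 714 higher and 1422 lower and the median difference of all genes -0.07. In 10 of the 12 fits with a library left out the reference was a MDA-MB-453 library; its part in those counts was not tested. With leave-out fits the counts were 981 to 1055 for the same direction, 534 to 656 for MDA-MB-231 only, 608 to 765 for MDA-MB-453 only and 194 to 311 for opposite changes. With a replicate block the counts were 1998, 1108, 645, 706 and 243, and the fulvestrant difference 1602 in place of 1752; the numbers do not pair the samples. Of 3243 values of single named genes under alternatives, 3126 kept direction and call, 75 lost the call, 11 gained it, 31 changed direction with neither value called, PRIM1, CDKN1A, MYC, CCND3, VPS9D1-AS1 and TMEM132A among them, and 0 changed direction with either value called. The 11 gains were all of the CCND1 difference. The depth limits how large a fall can be seen, since a gene at 0 counts gives a lower bound alone.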
